A study of Mus musculus with 6 samples.

Results

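The Toll-like receptors (TLRs) are 10 genes of the 40481 in the count table, chosen by name. They are the 5 receptors of the cell surface, *Tlr1*, *Tlr2*, *Tlr4*, *Tlr5* and *Tlr6*, and the 5 receptors of the endosome, *Tlr3*, *Tlr7*, *Tlr8*, *Tlr9* and *Tlr13*. Their transcripts were measured in bone marrow-derived macrophages (BMDMs), that is, macrophages grown out of mouse bone marrow in medium conditioned by CMG cells, without any microbial stimulus. RNA sequencing covered 3 wild-type (WT) libraries and 3 libraries labelled as *Scd2* knockouts, called *Scd2-m/-m* here. *Scd2* encodes a fatty acid desaturase, and *Scd2-m/-m* mice carry floxed *Scd2* alleles together with a lysozyme M-Cre transgene, which is active in cells of the myeloid lineage, so that a cell is changed only where and when Cre has acted. The sources used here do not say whether the WT mice carried floxed alleles or Cre. The study used male and female mice 2 to 5 months old, and which of them gave which library, or whether each library came from its own mouse, is not stated, so the p-values measure the spread between these libraries only.

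Toll-like receptors are membrane proteins that detect molecules made by microbes. Those of the cell surface bind lipids, lipoproteins and proteins of the microbial envelope, whereas those of the endosome bind nucleic acids from material the cell has taken up. A bound receptor pairs its intracellular domains and recruits adaptor proteins, MYD88 or TRIF, through which kinases activate NFkB and interferon regulatory factors. Macrophages use most of these receptors, and the receptors of the endosome depend on the membrane protein UNC93B1 to leave the endoplasmic reticulum.

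The libraries held between 46285176 and 57629638 counts on genes. *Scd2* itself was at 66.9, 77.8 and 62.7 CPM (counts scaled to a common library size) in the WT libraries and at 59.5, 38.0 and 39.8 CPM in the *Scd2-m/-m* libraries, with *Scd2-m/-m* replicate 1 closest to WT. From a separate measurement normalized to housekeeping genes, the paper reports a larger loss of *Scd2* transcript than these libraries show. Every *Scd2-m/-m* library sequenced here still lay below every WT library. The *Scd2-m/-m* mean was 66.2% of the WT mean, a log2 fold change of -0.59 (SE 0.19) that missed the threshold (FDR = 0.10) in the quasi-likelihood test of edgeR (FDR, the Benjamini-Hochberg adjusted p over all genes tested), and that was -0.83 (FDR = 8.87e-05) without *Scd2-m/-m* replicate 1. Throughout, a gene is said to have risen or fallen in *Scd2-m/-m* BMDMs where this test, fitted over 14778 genes with enough counts, gave an FDR below 0.05. By that rule 2585 genes, or 17.5% of those tested, changed, 9.65% being higher and 7.84% lower in *Scd2-m/-m*.

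All 10 receptors had enough counts to be tested, and 7 changed with genotype. All 3 falls were in receptors of the cell surface, and 3 of the 4 rises were in receptors of the endosome. At the cell surface *Tlr1*, *Tlr2* and *Tlr5* fell and *Tlr4* rose, while in the endosome *Tlr3*, *Tlr7* and *Tlr13* rose and no receptor fell. *Tlr6*, *Tlr8* and *Tlr9* did not pass the test. The median log2 fold change was -0.31 over the surface receptors and 0.33 over the endosomal receptors, beside 0.00 over all tested genes. The sizes were moderate, with a median absolute log2 fold change of 0.40 over the 7 changed receptors and 0.41 over all changed genes, and none of the 10 exceeded an absolute log2 fold change of 2, which 0.663% of all genes did while also passing the test. The WT and *Scd2-m/-m* libraries did not overlap for the same 7 receptors, 4 being higher and 3 lower, as for 34.9% of all tested genes (17.9% higher, 17% lower). Any gene without overlap has the smallest p that the exact permutation test allows with 3 libraries against 3 (two-sided p = 0.1). That p therefore adds nothing to the lack of overlap for these 7. The count of changed receptors was 4 without WT replicate 2 and 4 without *Scd2-m/-m* replicate 2. *Tlr1*, *Tlr3* and *Tlr4* then missed the threshold. Over all genes, 1490 and 1440 changed in these fits, beside 2585 with all libraries. *Tlr2*, *Tlr5*, *Tlr7* and *Tlr13* passed the threshold under all 15 alternative settings. *Scd2-m/-m* replicate 3 was the highest of its group for 10 of the 10 receptors, and for 37.2% of all tested genes. Without it 6 receptors changed, *Tlr3* being lost (FDR = 0.0621), and 2021 genes changed over all genes.

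**Figure D1:**
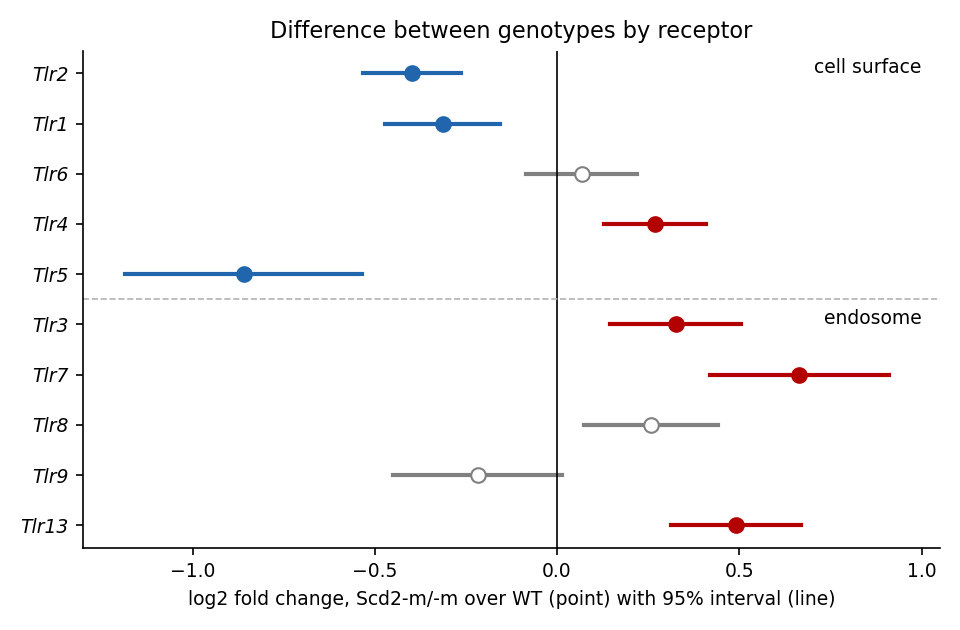
Log2 fold change between Scd2-m/-m and WT BMDMs for each Toll-like receptor (point) with its 95% interval (line), receptors of the cell surface above and of the endosome below the dashed line; red marks receptors higher and blue those lower in Scd2-m/-m at an FDR below 0.05, grey those that missed it. The 3 blue points lie among the surface receptors, the lowest being Tlr5 at -0.86, and the largest rise is Tlr7 at 0.67.

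TLR2 detects bacterial lipoproteins as a dimer with TLR1 or TLR6, and its transcript was the most abundant of the surface class. *Tlr2* was at 272, 250 and 240 CPM in WT and at 188, 191 and 200 CPM in *Scd2-m/-m* libraries, so every *Scd2-m/-m* library lay below every WT library. The mean was 254 ± 16.7 CPM in WT and fell to 193 ± 6.07 CPM (SD, n = 3 in each group here and below), for a log2 fold change of -0.40 (SE 0.06, FDR = 6.15e-04). *Tlr1*, the partner for triacylated lipoproteins, stood at 90.3, 105 and 95.7 CPM in WT and at 75.1, 73.8 and 85.3 CPM in *Scd2-m/-m*. It fell from 97.1 ± 7.53 to 78.1 ± 6.30 CPM (log2 fold change -0.31, SE 0.07, FDR = 0.00930). *Tlr6*, the partner for diacylated lipoproteins, gave overlapping groups at 22.3, 21.6 and 22.8 CPM in WT and 22.0, 23.4 and 24.6 CPM in *Scd2-m/-m*, and its log2 fold change of 0.07 had a 95% interval from -0.08 to 0.22 (FDR = 0.569). Within each library, the ratio of *Tlr1* to *Tlr2* levels per kb of exon averaged 0.346 ± 0.0418 in WT and 0.364 ± 0.0190 in *Scd2-m/-m*, with overlapping libraries, while that of *Tlr6* to *Tlr2* went from 0.0711 ± 0.00544 to 0.0978 ± 0.00264 without overlap. These ratios and those given further on were among 9 chosen after the values were seen. None of the 9 had an exact permutation p below 0.1, the smallest that 3 libraries against 3 allow. After Benjamini-Hochberg adjustment over the 9 the smallest was 0.1125.

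The lipoprotein receptor genes *Tlr1* (ENSMUSG00000044827, chr5:64924679-64933563) and *Tlr6* (ENSMUSG00000051498, chr5:64952031-64960097) lie 18467 bases apart on the minus strand of chromosome 5 in the mouse build GRCm38, each with its whole coding sequence in 1 exon. They are near copies in part. Of the 50-base stretches of their transcripts, 454 were identical, which is 13.6% of those of *Tlr1* and 12.3% of those of *Tlr6*, so the counts of either gene may depend on how reads that match both were assigned, which the sources used here do not describe. The longest run that the transcripts share is 229 bases long and is coding in both, at chr5:64925537-64925765 in *Tlr1* and at chr5:64953828-64954056 in *Tlr6*. It is printed here from the GENCODE transcripts, 5′ to 3′ on the minus strand, because no read inside it can tell these receptors apart.
Tlr1 and Tlr6: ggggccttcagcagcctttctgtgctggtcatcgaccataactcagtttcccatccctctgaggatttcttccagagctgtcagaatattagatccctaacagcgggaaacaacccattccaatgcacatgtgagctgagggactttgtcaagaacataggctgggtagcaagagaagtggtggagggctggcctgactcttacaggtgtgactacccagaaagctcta
*Tlr2* (ENSMUSG00000027995, chr3:83836272-83841767) lies alone on the minus strand of chromosome 3, also with a single coding exon.

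TLR4 binds lipopolysaccharide of Gram-negative bacteria, and its gene (ENSMUSG00000039005, chr4:66827584-66930284, plus strand) was the surface receptor gene that rose. *Tlr4* was at 114, 108 and 109 CPM in WT and at 121, 134 and 142 CPM in *Scd2-m/-m*, which did not overlap. The mean rose from 110 ± 3.24 to 132 ± 10.5 CPM, with a log2 fold change of 0.27 (SE 0.07, FDR = 0.0117). Relative to *Tlr2* in the same library, the *Tlr4* level per kb was 0.235 ± 0.0101 in WT and 0.372 ± 0.0190 in *Scd2-m/-m*. The groups could not overlap in this ratio, because *Tlr4* and *Tlr2* were already separate in opposite directions.

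TLR5 binds bacterial flagellin, and its gene (ENSMUSG00000079164, chr1:182954788-182976044, plus strand) had both the lowest level and the largest fall of the 10. *Tlr5* was at 6.47, 7.85 and 8.26 CPM in WT, from 321, 362 and 420 counts, and at 3.60, 3.72 and 5.09 CPM in *Scd2-m/-m*, from 201, 187 and 296 counts. The mean of 7.53 ± 0.941 CPM fell to 4.14 ± 0.829 CPM, and the log2 fold change of -0.86 (SE 0.15, FDR = 0.00138) corresponds to 0.551 times the WT level, with a 95% interval from 0.440 to 0.690 times.

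Among the receptors of the endosome, the 3 genes on the X chromosome were all higher on average. TLR7 binds single-stranded RNA. *Tlr7* (ENSMUSG00000044583, chrX:167304929-167330558, minus strand) was at 157, 163 and 184 CPM in WT and at 229, 258 and 314 CPM in *Scd2-m/-m*, so the lowest *Scd2-m/-m* library exceeded the highest WT library. It rose from 168 ± 14.4 to 267 ± 43.4 CPM, the largest rise of the 10, with a log2 fold change of 0.67 (SE 0.11, FDR = 0.00263). TLR13 binds bacterial ribosomal RNA and is a receptor that mice have and humans lack. *Tlr13* (ENSMUSG00000033777, chrX:106143204-106160493, plus strand) was at 167, 146 and 150 CPM in WT and at 191, 219 and 242 CPM in *Scd2-m/-m*, again without overlap. It rose from 155 ± 11.4 to 217 ± 25.6 CPM (log2 fold change 0.49, SE 0.08, FDR = 0.00121).

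*Tlr8* (ENSMUSG00000040522, chrX:167242696-167264329, minus strand) encodes the closest relative of TLR7 and lies 40599 bases from its gene. Its libraries overlapped, at 246, 257 and 269 CPM in WT and at 268, 303 and 352 CPM in *Scd2-m/-m*, since *Scd2-m/-m* replicate 1 lay just under WT replicate 3. The means were 257 ± 11.4 and 308 ± 42.1 CPM, and the log2 fold change of 0.26 (95% interval 0.07 to 0.44) missed the threshold narrowly (FDR = 0.0539, exact permutation p = 0.2). *Tlr8* is also the receptor whose call depended most on the settings, as it passed in 8 of the 15 alternatives. The *Tlr7* level per kb over that of *Tlr8* was 0.573 ± 0.0247 in WT and 0.760 ± 0.0209 in *Scd2-m/-m*, with no overlap between libraries.

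The X-linked position of these 3 genes makes the sex of the cells relevant to their levels. *Xist*, the RNA that coats the inactive X chromosome of female cells, was between 658 and 842 CPM in all 6 libraries, with a log2 fold change of 0.13 (FDR = 0.260). The Y-linked genes *Ddx3y*, *Eif2s3y* and *Kdm5d* had 0 counts in every library, and *Uty* did not exceed 0.121 CPM. All 6 libraries therefore had abundant *Xist* and next to no Y-linked transcripts.

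TLR3 binds double-stranded RNA and signals through TRIF. *Tlr3* (ENSMUSG00000031639, chr8:45395665-45411080, minus strand) was at 18.8, 17.6 and 19.1 CPM in WT and at 20.8, 23.4 and 25.4 CPM in *Scd2-m/-m*, and rose from 18.5 ± 0.787 to 23.2 ± 2.33 CPM (log2 fold change 0.33, SE 0.08, FDR = 0.0156). An antisense gene, *Gm45542*, covers 381 bases of its exons, or 7.32%, and since the use of strand in counting is not stated, reads from it could have been counted for *Tlr3*. TLR9 binds unmethylated CpG DNA, and it differed from the other endosomal receptors in sign. *Tlr9* (ENSMUSG00000045322, chr9:106222598-106226883, plus strand) was at 209, 244 and 276 CPM in WT and at 213, 185 and 228 CPM in *Scd2-m/-m*, with overlapping groups. Its log2 fold change of -0.22 had a 95% interval from -0.45 to 0.01 (FDR = 0.192, exact permutation p = 0.3), and it passed the threshold in 3 of the 15 alternatives, each time lower in *Scd2-m/-m*. The *Tlr7* level per kb was 0.593 ± 0.0409 times that of *Tlr9* in WT and 1.09 ± 0.154 times in *Scd2-m/-m*, and these ratios did not overlap.

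The table also holds 2 Toll-like receptor genes that were hardly detected. *Tlr11* was at 0.242 to 0.315 CPM in WT and at 0.358 to 0.568 CPM in *Scd2-m/-m* (log2 fold change 0.70, SE 0.38, FDR = 0.238). *Tlr12* had 4, 0 and 0 counts in WT and 12, 6 and 18 in *Scd2-m/-m*, too few for the test. TLR11 and TLR12 recognise profilin of protozoan parasites.

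Levels of different receptors were compared per kb of exon. In WT BMDMs the order was *Tlr2* at 84.3 CPM per kb, *Tlr8* at 71.8, *Tlr9* at 69.9, *Tlr7* at 41.2, *Tlr13* at 35.9, *Tlr1* at 29.0, *Tlr4* at 19.8, *Tlr6* at 5.98, *Tlr3* at 3.56 and *Tlr5* at 1.57. Of the neighbours in this order, *Tlr8* and *Tlr9* overlapped between libraries, as did *Tlr7* and *Tlr13*, and all other neighbours were separate. In *Scd2-m/-m* BMDMs *Tlr8* led at 85.8 CPM per kb, followed by *Tlr7* at 65.3, *Tlr2* at 64.0, *Tlr9* at 60.1 and *Tlr13* at 50.5, and each of these 5 overlapped its neighbour. *Tlr4* at 23.8 and *Tlr1* at 23.3 CPM per kb overlapped as well, whereas *Tlr6* at 6.26, *Tlr3* at 4.46 and *Tlr5* at 0.864 kept separate ranges. *Tlr2* was thus first on average in WT, although in WT replicate 3 both it and *Tlr9* were at 79.5 CPM per kb, and lay within a group of receptors with overlapping levels in *Scd2-m/-m*. Set against all tested genes, the per-kb level of *Tlr2* was at percentile 96.4 in WT and 95.2 in *Scd2-m/-m*, that of *Tlr7* at 92.3 and 95.3, and that of *Tlr5* at 34.9 and 25.6.

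**Figure D2:**
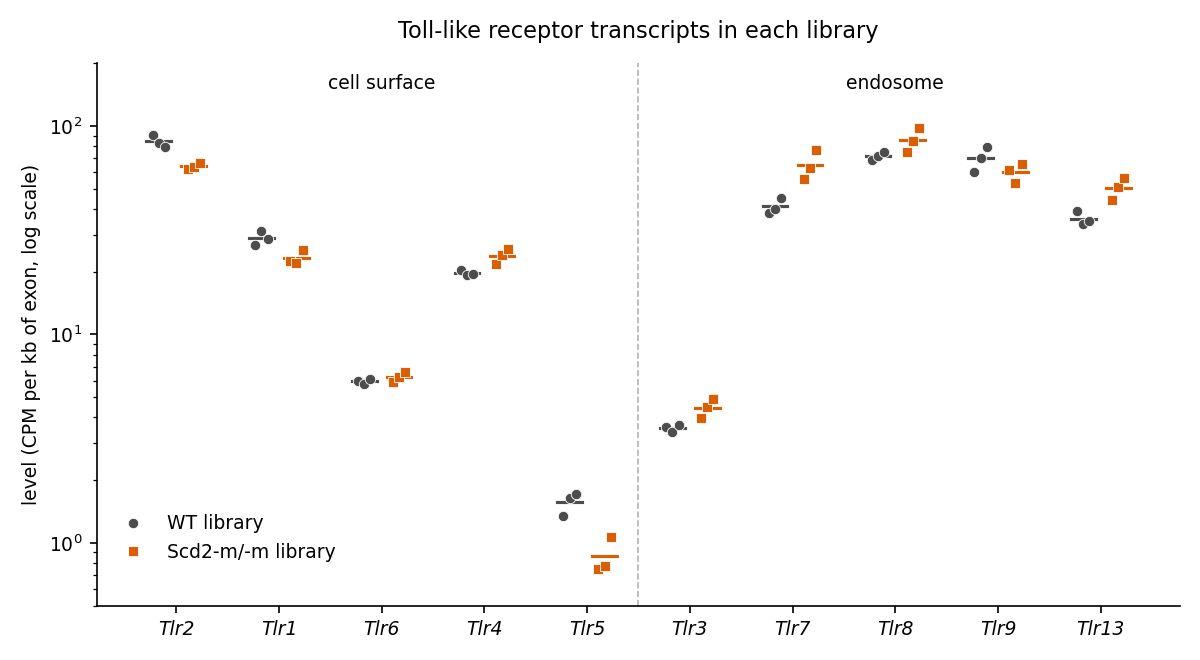
Level of each Toll-like receptor transcript in CPM per kb of exon on a log axis, with 1 point per library (grey circles WT, orange squares Scd2-m/-m) and a bar at each group mean, receptors of the cell surface left and of the endosome right of the dashed line. The orange points lie below the grey points for Tlr2, Tlr1 and Tlr5 and above them for Tlr4, Tlr3, Tlr7 and Tlr13, and the means span 0.864 to 85.8 CPM per kb.

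Summed over the 5 surface receptors, the level was 145, 141 and 136 CPM per kb in WT and 113, 117 and 125 in *Scd2-m/-m* libraries. The sum over the 5 endosomal receptors was 210, 219 and 238 CPM per kb in WT and 240, 256 and 302 in *Scd2-m/-m*. The *Scd2-m/-m* mean was thus 0.841 times the WT mean for the surface class and 1.20 times for the endosomal class. Endosomal receptors made up 59.1%, 60.8% and 63.7% of all Toll-like receptor transcripts per kb in WT and 68.0%, 68.7% and 70.7% in *Scd2-m/-m*, on average 61.2% ± 2.36 and 69.1% ± 1.42. The groups did not overlap in this share, which is given as a description and was not tested. *Tlr2* carried most of the surface sum, and *Tlr7*, *Tlr8*, *Tlr9* and *Tlr13* nearly all of the endosomal sum. In bulk RNA, more cells that express a receptor and more of its RNA in each cell cannot be told apart.

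**Figure D3:**
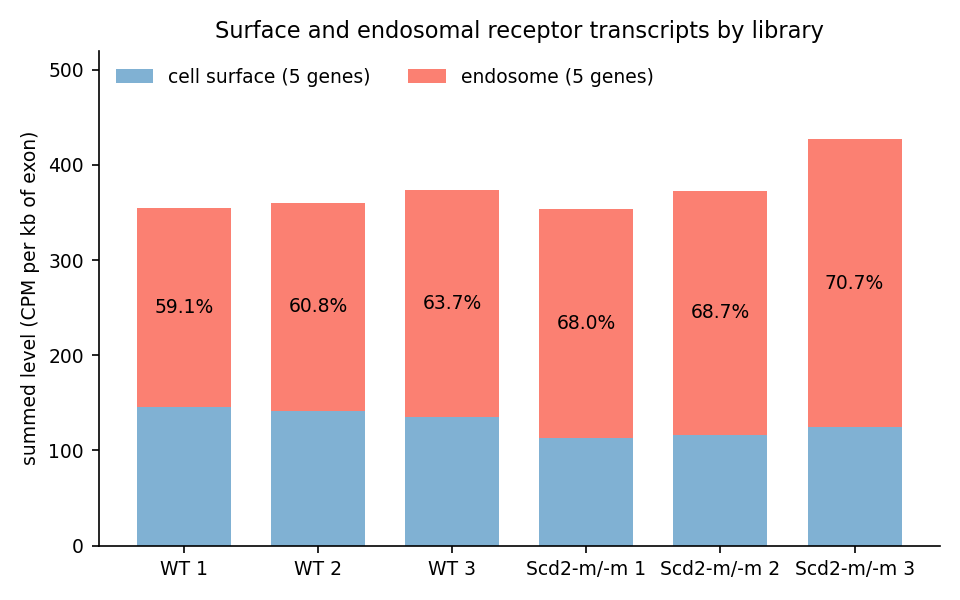
Summed level of the 5 surface (blue) and 5 endosomal (red) Toll-like receptor transcripts in each library, in CPM per kb of exon, stacked, with the endosomal percentage printed in the bar. The endosomal percentage lies between 59.1% and 63.7% in WT and between 68.0% and 70.7% in Scd2-m/-m libraries.

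The sequence before the receptors' start sites was read for short motifs of factors that act in macrophages. RefSeq gives a window of the build GRCm38.p6 for 8 of the 10 receptors, but none for *Tlr4* and *Tlr7*. In the 250 bases before the RefSeq start, a narrow form of the kappaB site, which NFkB binds (GGGA, any 2 bases, TTCC), was found in *Tlr3* alone among the 8, 211 bases before its RefSeq start as GGGAGTTTCC, and in 1.21% of 32851 windows of all genes. That start lies 700 bases inside the *Tlr3* gene as annotated by GENCODE, so this match is within the annotated gene. All distances given here are from the RefSeq start, which for *Tlr2* and *Tlr13* lies 159 and 71 bases inside the annotated gene. A wider form of the kappaB site, added after the data were seen, was also found in *Tlr2*, 173 bases before its start as GGGGAATTCC and shifted by 1 base as an overlapping match, and in 3.9% of all windows. The motif GAGGAA, the core of sites of the macrophage factor PU.1, was found in *Tlr1*, *Tlr8*, *Tlr9* and *Tlr13* and in 23.3% of all windows, TATAAA was found in *Tlr6* and *Tlr8* and in 12.4%, and the interferon-stimulated response element (GAAA, any 2 bases, GAAA) was found in none of the 8 and in 2.98%. Both strands were searched, TATAAA matches of *Tlr8* overlapped each other, and a match shows only that the letters are there. The windows of the 3 receptors that fell and of *Tlr13*, which rose, are printed 5′ to 3′ on the strand of the gene, as far as they lie outside the annotated gene, with motif matches in capitals. They span chr5:64933564-64933808 on the minus strand, chr3:83841768-83841858 on the minus strand, chr1:182954538-182954787 on the plus strand and chrX:106143025-106143203 on the plus strand.
Tlr1: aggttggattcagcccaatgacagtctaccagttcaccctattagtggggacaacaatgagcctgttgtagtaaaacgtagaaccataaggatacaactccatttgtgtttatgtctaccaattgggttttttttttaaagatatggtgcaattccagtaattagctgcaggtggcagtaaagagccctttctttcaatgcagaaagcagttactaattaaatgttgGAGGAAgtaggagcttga
Tlr2: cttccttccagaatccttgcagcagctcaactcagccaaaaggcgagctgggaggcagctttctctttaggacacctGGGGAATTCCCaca
Tlr5: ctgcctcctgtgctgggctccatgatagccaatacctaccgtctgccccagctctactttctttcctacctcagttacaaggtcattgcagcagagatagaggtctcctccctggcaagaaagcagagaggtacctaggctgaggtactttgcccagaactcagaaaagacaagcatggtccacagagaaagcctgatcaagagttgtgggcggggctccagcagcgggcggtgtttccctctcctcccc
Tlr13: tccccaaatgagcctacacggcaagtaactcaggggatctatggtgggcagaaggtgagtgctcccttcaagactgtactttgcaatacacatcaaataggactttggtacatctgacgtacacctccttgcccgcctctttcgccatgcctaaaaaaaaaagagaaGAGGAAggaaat
A GAGGAA match stands 23 bases before the RefSeq start of *Tlr1*, which fell, and 83 bases before that of *Tlr13*, which rose, and none of the letters searched was found in the window of *Tlr5*.

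The genes that surround the receptors were taken from 6 lists of 85 genes, all of which were tested. Of these, 31 changed, 11 rising and 20 falling, which is 36.5% beside 17.5% of all tested genes, and their median log2 fold change was -0.03. Without WT replicate 2 the genes that rose numbered 5, and without *Scd2-m/-m* replicate 2 or replicate 3 they numbered 7. Over all genes, 869, 869 and 1148 rose in these fits, beside 1426 with all libraries. The lists were drawn up with earlier results of these data known, so these counts are a description.

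Co-receptors present the ligand to a receptor at the cell surface. Of 6, only *Cd180* changed, which is 16.7% and near the share of all tested genes. CD180 is a relative of TLR4 without a signaling domain, and *Cd180* rose from 160, 154 and 165 CPM in WT to 246, 225 and 260 CPM in *Scd2-m/-m* (log2 fold change 0.61, SE 0.07, FDR = 2.51e-05). Its own partner *Ly86* had a log2 fold change of 0.08 (FDR = 0.581), and *Ly96*, the partner of TLR4 that holds lipopolysaccharide, one of -0.03 (FDR = 0.870). *Cd14*, which hands lipopolysaccharide to TLR4, ranged from 892 to 1292 CPM in WT and from 841 to 930 CPM in *Scd2-m/-m*, with overlapping libraries (log2 fold change -0.28, FDR = 0.150). Per kb, *Tlr4* over *Ly96* went from 0.892 ± 0.0805 to 1.11 ± 0.108 and *Cd180* over *Tlr4* from 1.79 ± 0.0720 to 2.27 ± 0.211, both without overlap between the groups.

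Chaperones and trafficking factors that carry the receptors to their compartments moved in both directions, 4 of 15 rising and 3 falling. This is 46.7% changed, beside 17.5% of all tested genes. *Unc93b1*, which escorts the endosomal receptors, fell from 1765, 1997 and 2151 CPM in WT to 1417, 1334 and 1439 CPM in *Scd2-m/-m* (log2 fold change -0.50, SE 0.08, FDR = 5.47e-04). *Tlr3*, *Tlr7* and *Tlr13* rose while the transcript of their escort fell. The summed endosomal receptor level per kb over that of *Unc93b1* went from 0.343 ± 0.0151 to 0.577 ± 0.0608. The groups could not overlap in this ratio, because its parts were already separate in opposite directions. *Cnpy3*, a folding factor that most Toll-like receptors need in the endoplasmic reticulum, fell from 135 ± 0.655 to 90.9 ± 2.30 CPM (log2 fold change -0.57, SE 0.05, FDR = 1.05e-05). *Hsp90b1*, the chaperone it works with, had a log2 fold change of 0.17 that passed the threshold here (FDR = 0.0494) but not in 8 of 15 alternatives. The endolysosomal histidine and peptide transporters were split, with *Slc15a4*, which TLR7 and TLR9 need to signal, higher (log2 fold change 0.24, FDR = 0.0102) and *Slc15a3* lower (log2 fold change -0.50, FDR = 0.0135). *Sdcbp*, which encodes the scaffold protein syntenin, rose with a log2 fold change of 0.34 (FDR = 0.00447), and *Arl8b*, which moves lysosomes along microtubules, with one of 0.21 (FDR = 0.0263). *Slc15a4* and *Arl8b* missed the threshold without WT replicate 2 or *Scd2-m/-m* replicate 2, *Arl8b* also without replicate 3 of either genotype, and *Slc15a3* without any one of the 3 *Scd2-m/-m* libraries.

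Of the 11 enzymes that trim receptors or process their ligands in the lysosome, *Ctsb* and *Ctsk* rose and none fell, which is 18.2% beside 17.5% of all tested genes. *Ctsb*, the protease cathepsin B, had a log2 fold change of 0.33 (SE 0.07, FDR = 0.00746) and missed the threshold without WT replicate 2. *Ctsk*, the protease cathepsin K, had one of 0.45 (SE 0.13, FDR = 0.0254) at 6.21 ± 0.852 CPM in WT and 8.50 ± 1.02 CPM in *Scd2-m/-m*, and missed it without replicate 3 of either genotype, WT replicate 1 or *Scd2-m/-m* replicate 2.

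Adaptors and the kinases next to them mostly did not change, 1 of 25 rising and 6 falling. This is 28% changed, beside 17.5% of all tested genes. *Myd88*, the adaptor of all Toll-like receptors but TLR3, was at 104, 99.4 and 106 CPM in WT and at 92.0, 83.9 and 80.2 CPM in *Scd2-m/-m* and fell (log2 fold change -0.27, SE 0.06, FDR = 0.00961). *Ticam1*, which encodes TRIF, the adaptor of TLR3 and of internalised TLR4, was at 51.0, 48.9 and 52.1 CPM in WT and at 69.5, 58.2 and 57.7 CPM in *Scd2-m/-m* and rose (log2 fold change 0.29, SE 0.08, FDR = 0.0180). The adaptors of these pathways therefore differed in sign, although *Myd88* missed the threshold without *Scd2-m/-m* replicate 2 and *Ticam1* without WT replicate 2. The bridging adaptors *Tirap* and *Ticam2* had log2 fold changes of 0.03 (FDR = 0.833) and 0.08 (FDR = 0.547). *Pik3ap1*, an adaptor that links the receptors to phosphoinositide 3-kinase, fell the most in this list, from 461 ± 29.3 to 302 ± 10.3 CPM (log2 fold change -0.61, SE 0.06, FDR = 2.26e-05). *Traf3*, a ubiquitin ligase on the way to interferon, fell with a log2 fold change of -0.46 (FDR = 2.80e-04), *Irak2* with -0.30 (FDR = 0.00367) and the ubiquitin ligase gene *Peli2* with -0.31 (FDR = 0.00374). The kinases of the MYD88 complex did not pass the test, *Irak4* at -0.02 (FDR = 0.848) and *Irak1* at -0.16 (FDR = 0.0727), nor did the ubiquitin ligase gene *Traf6* at 0.02 (FDR = 0.849).

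Negative regulators fell more often than they rose, with 7 of 18 lower and 2 higher. This is 50% changed, beside 17.5% of all tested genes, of which 7.84% were lower and 9.65% higher. *Irak3*, which encodes a kinase-like protein that blocks the MYD88 complex, fell from 144, 147 and 131 CPM in WT to 73.5, 76.2 and 83.8 CPM in *Scd2-m/-m*, with a log2 fold change of -0.85 (SE 0.07, FDR = 2.07e-06). *Nfkbia*, the inhibitor of NFkB, fell with a log2 fold change of -0.37 (FDR = 0.00234), the phosphatase gene *Ptpn6* with -0.29 (FDR = 0.00269), the adaptor gene *Dok3* with -0.25 (FDR = 0.00559), and *Rnf216*, a ubiquitin ligase that acts on the receptors, with -0.21 (FDR = 0.0194), though not without WT replicate 1 or 3 or *Scd2-m/-m* replicate 2. *Sigirr*, a receptor that dampens Toll-like and interleukin-1 receptor signaling, rose from 0.588 ± 0.108 to 2.43 ± 0.503 CPM (log2 fold change 2.05, FDR = 6.88e-05). Of the transcription factors at the end of the pathway, 4 of 10 fell and 1 rose, which is also 50% changed. The NFkB subunit genes *Nfkb1*, *Nfkb2* and *Relb* each had a log2 fold change of -0.38 (FDR = 3.86e-04, 8.05e-04 and 5.86e-04), and *Irf1* had one of -0.28 (FDR = 0.0135) that missed the threshold without WT replicate 3. *Irf7*, the factor through which TLR7 and TLR9 induce type I interferon, rose from 236, 202 and 248 CPM in WT to 317, 291 and 292 CPM in *Scd2-m/-m* (log2 fold change 0.39, SE 0.08, FDR = 0.00267).

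**Figure D4:**
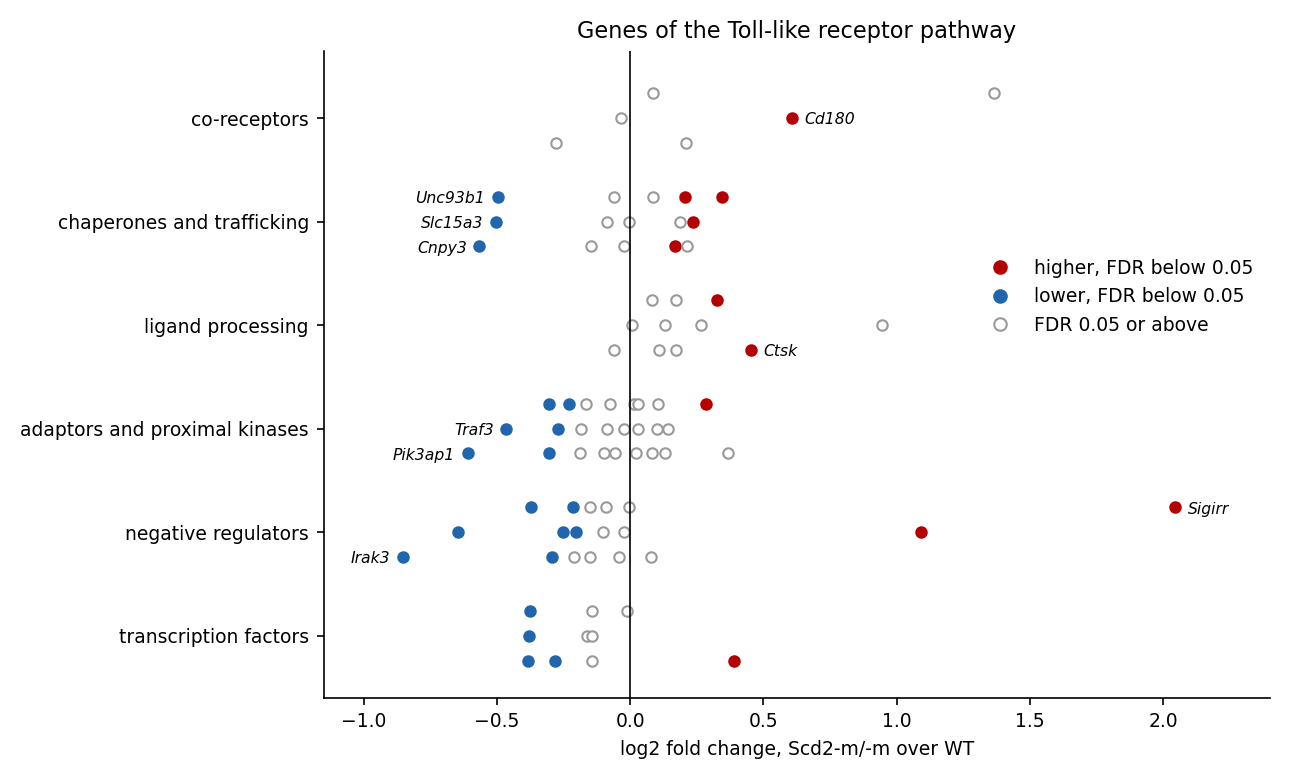
Log2 fold change between Scd2-m/-m and WT BMDMs for the 85 genes of 6 Toll-like receptor pathway lists, 1 point per gene, with filled red and blue points for genes higher and lower at an FDR below 0.05 and open points for the others; height within a list only spreads the points. The lists with the most blue points are negative regulators (7 of 18), adaptors and proximal kinases (6 of 25) and transcription factors (4 of 10). Over all tested genes, 7.84% were lower. Sigirr lies farthest right at 2.05.

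Other transcripts that mark the kind of cell also moved with genotype. Macrophage markers were abundant in every library, yet 4 of 7 were lower in *Scd2-m/-m*, namely *Adgre1*, *Csf1r*, *Mertk* and *Lyz2*, and *Cd68* was higher. The marker counts in this paragraph stand beside 7.84% lower and 9.65% higher over all tested genes. *Lyz2*, at a log2 fold change of -1.33 (FDR = 6.42e-08), is the gene whose locus holds the lysozyme M-Cre transgene. The 7 markers summed to 36170 to 37480 CPM in WT and to 20520 to 21130 CPM in *Scd2-m/-m*, and without *Lyz2* the other 6 summed to 14070 to 14320 and 11660 to 12070 CPM, or 0.835 times the WT level on average. Markers of dividing cells were higher for 5 of 5 genes, with sums of 38.0 to 46.6 CPM in WT and 103 to 108 CPM in *Scd2-m/-m*, and those of monocytes and progenitors for 5 of 7, with sums of 42.2 to 60.2 and 101 to 160 CPM, which were mostly *Ccr2*, the other 6 genes summing to 3.68 to 5.98 and 10.8 to 11.6 CPM. Neutrophil markers, 5 of 7 tested, summed to 10.9 to 11.7 CPM in WT and 25.6 to 33.3 CPM in *Scd2-m/-m*. B cell markers (2 of 3 tested higher) summed to 2.14 to 3.77 CPM in WT and 5.33 to 7.02 CPM in *Scd2-m/-m*, plasmacytoid dendritic cell markers (2 of 4) to 3.03 to 4.59 and 5.49 to 7.44 CPM, and conventional dendritic cell markers (2 of 5) to 1.03 to 1.75 and 1.95 to 2.70 CPM. Few markers of T and NK cells (1 of 5), mast cells (1 of 4) and stroma (2 of 3) had enough counts to be tested, none of those tested changed, and *Ncr1* was at 0 in all 6 libraries. The part of these other cells and of cell division in the receptor differences was not tested.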

How the data were processed

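RNA of 6 BMDM samples was sequenced after poly(A) selection. STAR aligned the reads to Ensembl's primary assembly, and the authors deposited unnormalized counts per gene as whole numbers. How reads were counted, with which tool and strand setting, was not given in the sources used here, and between 60.9% and 64.8% of counts from 1 to 20 were even. The submitters' processing notes name edgeR and limma, which made a table of the authors' own comparison (log2 fold changes, confidence limits, p-values, statistics and log2 CPM) that was not used.

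Of 40757 entries, 276 repeats of a gene were removed. Counts of genes that passed filterByExpr were tested with edgeR 4.0.16 in R 4.3.3 (TMM factors of 0.979 to 1.02, robust quasi-likelihood fit, two-sided, Benjamini-Hochberg adjustment over 14778 genes). CPM uses TMM-scaled library sizes. Level per kb divides CPM by the merged exon length in GENCODE's GRCm38 annotation, which was matched for 99.4% of genes. Intervals of 95% come from the same fit. Replicates of a genotype differed by more than counting error (chi-square per gene of 10.4 to 31.4). The receptors, the pathway and marker lists and the tests were chosen with earlier results of these data known. The text names all 10 receptors, *Tlr11*, *Tlr12*, *Scd2*, up to 6 changed genes with the smallest p in each pathway list, the main co-receptors, chaperones, adaptors and kinases whatever their result, and changed or absent markers. The sex-linked genes and *Gm45542* fall outside that rule, and 1 macrophage marker is not reported here. Alternatives were RLE and upper-quartile factors, other filters (none, or 10 counts in every library), DESeq2 1.42.0, limma-voom 3.58.1 with and without quality weights, the replicate number as a block, halved counts, and each library left out in turn. On simulated counts of the 14778 genes with 200 changed, 62.8% of genes changed by a log2 fold of 0.5 and 79.6% of those changed by 1 were called, with 4.87% false calls. The simulation used trended dispersions and fewer changed genes than the 2585 called here, so these rates need not hold for the data. Code was run in Python 3.11.15 with scipy 1.17.1.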

Additional observations from a re-analysis of the deposited data

How the results depend on the processing

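No receptor changed sign in any of the 15 alternatives, and another scaling moved the median of all genes by no more than 0.00879 on the log2 scale. The number of changed receptors ran from 7 to 9 where all libraries were kept and from 4 to 8 with a library left out (2 to 5 higher, 2 to 4 lower). The log2 fold change of *Tlr2* lay between -0.44 and -0.34, that of *Tlr5* between -1.04 and -0.77, that of *Tlr7* between 0.53 and 0.76 and that of *Tlr13* between 0.41 and 0.58. Limma-voom with quality weights called 4507 genes (2325 higher, 2182 lower) and 47 pathway genes (17 higher). With a library left out, the calls were 1440 to 2567 over all genes (869 to 1392 higher, 571 to 1175 lower) and 21 to 33 over the pathway (5 to 13 higher), and the fits without WT replicate 2 and without *Scd2-m/-m* replicate 2 gave the fewest. The *Scd2* log2 fold change was -0.62 (FDR = 0.0105) with limma-voom and -0.82 (FDR = 9.75e-05) with quality weights, and -0.83 to -0.48 with a library left out. The causes were not tested. The endosomal percentage was 60.3% and 68.0% in WT and *Scd2-m/-m* with the length of the longest transcript.

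The labels give same-numbered libraries of the genotypes only a shared number, and their deviations from the group means correlated at 0.053, -0.0196 and 0.0398. With 3 libraries a group, these values cannot decide whether same-numbered libraries were handled together. With the replicate number as a block, 2974 genes, 8 receptors and 34 pathway genes were called, *Tlr8* among them (FDR = 0.00852), against 2585, 7 and 31 without the block. Not every library correlated best with its own number. With 46285176 counts or more a library, depth limits little but *Tlr11* and *Tlr12*, and 3 libraries a group limit small differences such as those of *Tlr8* and *Tlr9*.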
